A study of Mus musculus with 2 samples.

Results

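Slc14a1 and Scara5 encode membrane proteins. On 3 of their 4 probe sets the signal was bright in one clone of mouse mesoangioblasts, D16, and close to the bottom of the range in another, D351, while the fourth was near 0 in both. All probe sets whose annotation gives exactly 1 symbol, either Slc14a1 or Scara5, were taken, which came to 2 of 7542 named genes and 4 of 12477 probe sets, of which 3 were for Slc14a1 and 1 for Scara5. Both genes were selected on these same signals, chosen by being strong in D16 and near background in D351, so that difference is described below and supports nothing further. Mesoangioblasts are vessel-associated progenitor cells that can be grown from embryonic aorta.

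Both clones came from the dorsal aorta of C57BL6 embryos at embryonic day 9.5, kept as an explant for 5 days and then dissociated. Cells were cloned by limiting dilution on embryonic mouse fibroblasts treated with mitomycin C, in RPMI with 20% fetal calf serum, and expanded on gelatin-coated dishes. Total RNA of D16 and of D351 was hybridised to 1 Affymetrix U74B array each, so each group was a single clone and a single culture. No value below has a replicate, no test was possible, and every difference is between 2 RNA samples.

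Slc14a1 is the urea transporter UT-B, a channel-like protein that lets urea cross the membrane down its gradient. It is best known from red blood cells, where it carries the Kidd blood group in humans, and from the descending vasa recta of the kidney, and it is also found in astrocytes. Scara5 is a class A scavenger receptor, a trimeric surface protein that binds ferritin and can bring ferritin-bound iron into cells without transferrin. It was described in the mesenchyme of the developing mouse kidney and is expressed by stromal fibroblasts of several tissues.

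The total signal was 653854 units in D16 and 646285 units in D351, with medians of 16.6 in D16 and 16.9 in D351. The pooled median of both arrays, 16.8, served as a floor: values under it were raised to it before a ratio was taken, a ratio with 1 clone under the floor is a bound, and a probe set under it in both clones has no ratio. Of 9 hybridisation controls that reached it, 8 were higher in D16, and the median ratio over the 9 was 1.44-fold towards D16. Of 6920 probe sets at the floor in at least 1 clone, 553 (7.99%) were at least 2-fold higher in D16 and 639 (9.23%) at least 2-fold higher in D351. Of 11 genes that mark mesoangioblasts or mural cells, Cspg4 alone could be read, at 83.3 in D16 and 26.1 in D351, so the labelled cell type could not be checked beyond that gene.

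Slc14a1 was bright in D16 on 2 of its 3 probe sets. The _f probe set, a design that can match related transcripts, read 480.6 in D16 and 0.9 in D351. The _r probe set, a design made under relaxed rules, read 242.1 in D16 and 3.9 in D351. Both were designed from the same transcript sequence, so they are not separate evidence for the gene. In D351 these signals were in the lowest part of the array, where 790 of 12411 non-control probe sets read 0.9 or less and 2866 read 3.9 or less. With values raised to the floor, the Slc14a1 signal was at least 28.6-fold higher in D16 on the _f probe set (log2 ratio at least 4.84) and at least 14.4-fold higher on the _r probe set (at least 3.85).

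The third Slc14a1 probe set, also an _f design but made from another transcript sequence, was near 0 in both clones. It read 0.8 in D16 and 0.5 in D351, and it has no ratio. The signal of Slc14a1 in D16 therefore rests on probes against 1 of the 2 sequences. Over all 12411 non-control probe sets, 5491 (44.2%) were under the floor in both clones. There were 454 genes with a probe set at or above the pooled 90th percentile (125.7) in D16 and another probe set from a different sequence. Of these, 187 (41.2%) had one of the others under the floor in both clones. Where the other probe set came from the same sequence this was so for 8 of 48 genes (16.7%). These are shares of genes, some with several other probe sets, and are not the same measure as the 44.2% of single probe sets. Which part of the transcript each probe set reads was not tested.

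Scara5 had 1 probe set, of the plain _at design, which read 346.6 in D16 and 5.4 in D351. On the D351 array 3464 probe sets read 5.4 or less. The Scara5 signal was at least 20.6-fold higher in D16 (log2 ratio at least 4.37). No second probe set was there to compare it with.

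**Figure D1:**
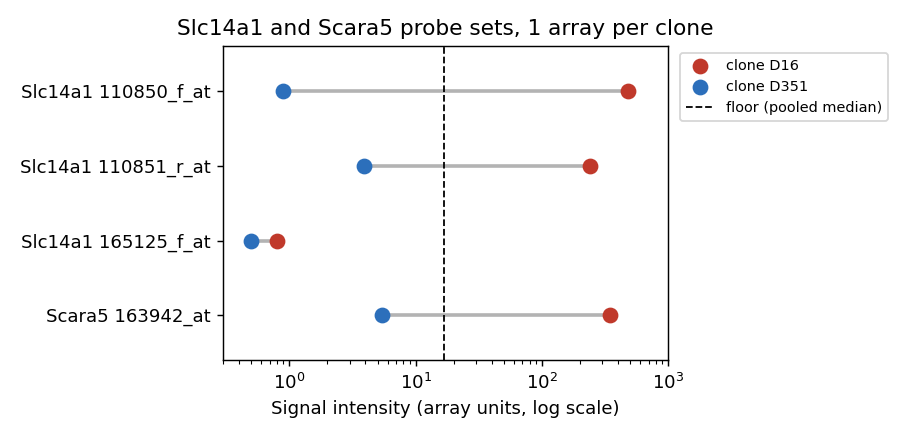
Signal of each Slc14a1 and Scara5 probe set in clone D16 (red) and clone D351 (blue), 1 array per clone, on a log axis in array units, with the floor of 16.8 as a dashed line. Slc14a1 110850_f_at, Slc14a1 110851_r_at and Scara5 lie above the floor in D16 and under it in D351, while Slc14a1 165125_f_at lies under it in both.

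The 3 bright probe sets of Slc14a1 and Scara5 held the 3 largest ratios towards D16 among those 6920 probe sets. These ratios are bounds, so their place depends on the floor. With the floor lowered to the pooled 25th percentile (4.6) they were again the 3 largest, of 10163 probe sets. With it raised to the 75th percentile (53.5) the _f probe set of Slc14a1 was the largest of 3675, while Scara5 was 4th and the _r probe set of Slc14a1 17th.

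How many probe sets shared the pattern depended on the thresholds. A probe set was called D16-restricted when it reached 125.7 in D16 and stayed under the floor in D351. That held for 8 of 12411 probe sets (0.0645%), or 0.649% of the 1233 probe sets that were bright in D16. The 8 include the 3 bright Slc14a1 and Scara5 probe sets, which were chosen for this pattern. With the floor at 4.6 there were 2, both for Slc14a1, since Scara5 in D351 then lay above the floor, and with the floor at 53.5 there were 42. The mirror pattern, bright in D351 and under the floor in D16, held for 17 probe sets (0.137%), or 1.37% of the 1239 that were bright in D351.

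Besides Slc14a1 and Scara5, 5 genes had a D16-restricted probe set. Acot1, an acyl-CoA thioesterase, read 219.2 in D16 and 5.5 in D351 (at least 13.0-fold higher in D16). Map2, a microtubule-associated protein of neurons, read 173.0 in D16 and 8.4 in D351, but another Map2 probe set was near 0 in both (1.5 in D16 and 0.4 in D351), as for Slc14a1. Lpar2, a lysophosphatidic acid receptor, read 125.7 in D16 and 11.6 in D351, at the edge of the rule.

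The mitotic kinesin Kif15 read 138.8 in D16 and 16.1 in D351 on its D16-restricted probe set. Other Kif15 probe sets read 201.9 and 245.3 in D16, against 39.5 and 59.1 in D351, so D351 was not at background for this gene. An _r probe set of Kif15 was under the floor in both, at 5.0 in D16 and 4.3 in D351. The remaining probe set, named for a cDNA clone, read 127.8 in D16 and 8.8 in D351. Just outside the rule, an _i probe set of Pafah2 read 104.1 in D16 and 1.8 in D351, and Alcam, an adhesion molecule, read 236.7 in D16 and 17.7 in D351, a log2 ratio of 3.74, above the lower bounds of these 5 genes.

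**Figure D2:**
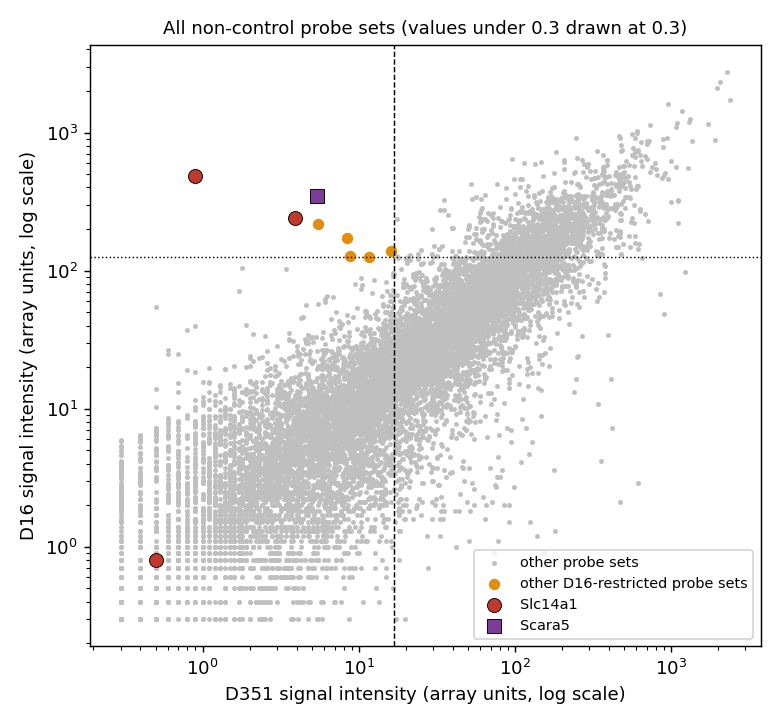
Signal in D16 (vertical) against D351 (horizontal) for 12411 non-control probe sets, both on log axes in array units, 1 array per clone. Slc14a1 (red circles), Scara5 (purple square) and the other D16-restricted probe sets (orange) lie left of the floor of 16.8 (dashed) and at or above 125.7 (dotted), apart from the third Slc14a1 probe set at the lower left.

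By ratio, Slc14a1, which was chosen for this difference, was the most D16-biased of the measured solute carriers. Of 163 genes whose symbol begins with Slc followed by a number, 90 reached the floor in at least 1 clone, with a median log2 ratio of 0.06 with Slc14a1 excluded or included, against 0.01 over all 4922 measured genes. At least 2-fold higher in D16 were 7 of the 90, or 6 of 89 without Slc14a1, against 8.57% of all measured genes. At least 2-fold lower were 10 of the 90, against 9.49%. After Slc14a1 came the sodium bicarbonate cotransporter Slc4a4, with 83.2 in D16 and 15.0 in D351 (at least 4.95-fold higher in D16). Other Slc4a4 probe sets read 28.5 and 10.1 in D16, against 10.7 and 5.6 in D351. The mitochondrial carrier Slc25a30 followed, with 185.1 in D16 and 54.8 in D351 (3.38-fold).

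Few other genes that handle urea, water and osmolytes could be read, and those that could went in both directions. Of 32 such genes 12 had a probe set, and 6 of the 12 reached the floor in at least 1 clone, with 2 at least 2-fold higher in D16 (background 8.57%) and 0 lower (background 9.49%). One of the 2 was Slc14a1 itself. The other was Slc7a1, a carrier of arginine and other cationic amino acids, with 196.5 in D16 and 70.1 in D351 (2.80-fold). Its relative Slc7a2 read 17.9 in D16 and 34.2 in D351 (1.91-fold higher in D351). With Slc14a1 left out, the median log2 ratio was 0.12 over 5 genes, which is the lower bound of Aqp11.

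The water channel Aqp6 read 27.5 in D16 and 18.9 in D351 on one probe set and stayed under the floor on 2 others. Aqp11 read 18.3 in D16 and 10.8 in D351. Aqp3, Aqp4 and Aqp5 were under the floor in both clones, as was Otc, the urea cycle enzyme ornithine transcarbamylase. Nfat5, the transcription factor of the response to high tonicity, read 187.7 in D16 and 212.4 in D351 (log2 ratio -0.18). Slc14a2 and Aqp1 were not analysed here.

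With values raised to the floor, Scara5, which was chosen for this difference, was the one measured scavenger receptor past 2-fold in either direction. Of 31 listed genes 14 had a probe set and 8 reached the floor in at least 1 clone. With values raised to the floor the other 7 lay between 2-fold lower and 2-fold higher, with a median log2 ratio of -0.06 without Scara5. Scarf2, Stab1 and Stab2 were under the floor in one clone, so their ratios are bounds and they cannot be placed within 2-fold. Scarf2 read 7.1 in D16 and 17.5 in D351 on its brightest probe set, and its bound is that median. The class A relative Colec12, a collectin, read 71.8 in D16 and 135.1 in D351 (log2 ratio -0.91). Ssc5d, a soluble protein with scavenger receptor domains, read 44.4 in D16 and 86.6 in D351 (-0.96). Both were lower in D16, though by less than 2-fold.

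Scarb2, the lysosomal membrane protein LIMP-2, read 196.7 in D16 and 227.6 in D351, and Cxcl16 read 42.2 in D16 and 40.1 in D351. Stab1 and Stab2, receptors of sinusoidal endothelium, were at the floor in one clone each, at 15.9 and 17.0 in D16 and 17.3 and 12.5 in D351. Cd36, Cd163, Scarb1, Scarf1, Megf11 and Loxl3 were under the floor in both clones. Scara3, Msr1 and Marco were not analysed here.

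Several genes of cellular iron handling differed between the clones along with Scara5. Of 58 listed symbols, which leave Scara5 out, 23 had a probe set and 16 reached the floor in at least 1 clone. At least 2-fold higher in D16 were 4 of the 16 (Steap1, Slc25a37, Tfrc and Steap3), beside 8.57% of all measured genes, and 2 were at least 2-fold lower (Slc40a1 and Neo1), beside 9.49%. The median log2 ratio was 0.38, against 0.01 over all measured genes. Above 0 were 11 of the 16, against 50.7% of all measured genes, and some of the 11 are lower bounds close to 0. With 1 array per clone these counts describe the arrays and show nothing particular to the list.

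Among the genes of iron uptake, the transferrin receptor Tfrc read 92.0 in D16 and 37.0 in D351 (2.49-fold higher in D16). Steap3, the ferrireductase that works beside it in the endosome, read 91.0 in D16 and 36.9 in D351 (2.47-fold). Its relative Steap1 read 721.8 in D16 and 183.4 in D351 (3.94-fold). Steap4 read 83.0 in D16 and 64.4 in D351. Steap2 read 90.8 in both on its brighter probe set, and 70.1 in D16 and 93.1 in D351 on the other, so the family did not move as one. With the floor raised to the pooled 75th percentile (53.5), Tfrc and Steap3 were under it in D351. Their log2 ratios then became lower bounds under 2-fold, at least 0.78 for Tfrc and at least 0.77 for Steap3. Slc39a14, an importer of iron that is not bound to transferrin, read 79.6 in D16 and 105.5 in D351 (log2 ratio -0.41).

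The iron exporter ferroportin, Slc40a1, went the other way and met the mirror rule. It read 14.0 in D16, under the floor, and 139.9 in D351, which makes it at least 8.33-fold higher in D351 (log2 ratio of D16 over D351 at most -3.06). Fth1, the ferritin heavy chain of iron storage, read 1134.4 in D16 and 734.4 in D351 (1.54-fold higher in D16), with a probe set of the _f design, which may also match related sequences. Slc25a37, mitoferrin-1, which carries iron into mitochondria, read 278.4 in D16 and 94.9 in D351 (2.93-fold), and its other probe set 37.7 in D16 and 21.0 in D351.

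Sfxn1, a carrier of the inner mitochondrial membrane, read 109.3 in D16 and 73.9 in D351. Nfs1, the cysteine desulfurase of iron-sulfur cluster assembly, was lower in D16, with 34.3 in D16 and 48.4 in D351 on an _i probe set. Neo1, best known as a receptor for netrins and repulsive guidance molecules and listed here as a partner of hemojuvelin, read 70.3 in D16 and 258.5 in D351 (log2 ratio -1.88). Of the sensors of iron, Fbxl5 read 23.5 in D16 and 17.8 in D351, while both probe sets of Ireb2 were under the floor in both clones. Hmox1, Hjv, Iscu, Slc39a8, Epas1 and Cd163 were under it too. Slc11a2 and Ftl1 were not analysed here.

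**Figure D3:**
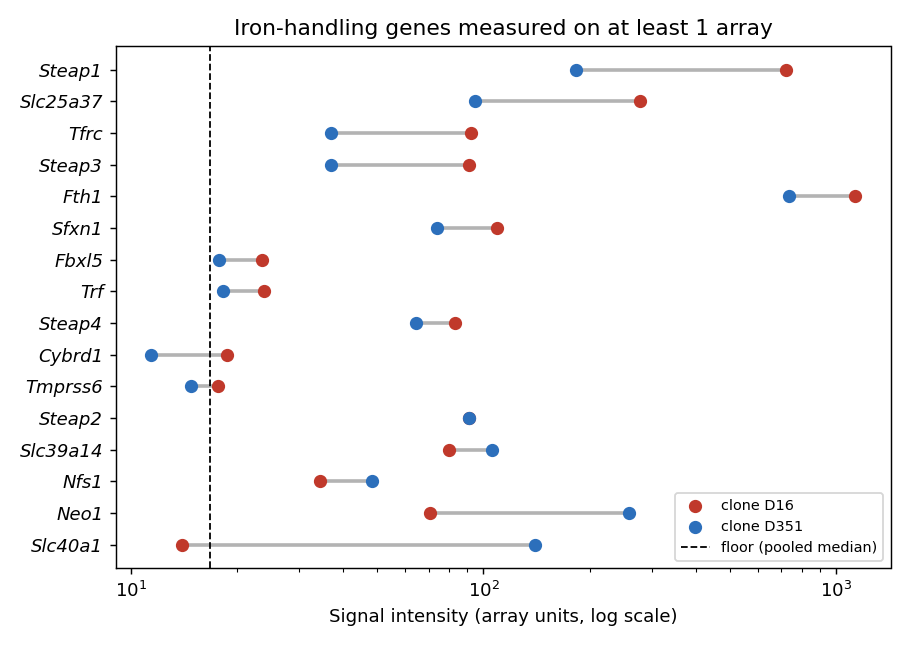
Signal of the 16 iron-handling genes at the floor in at least 1 clone, each on its brightest probe set, in D16 (red) and D351 (blue) on a log axis in array units, 1 array per clone. Steap1, Slc25a37, Tfrc and Steap3 were at least 2-fold higher in D16 and Slc40a1 and Neo1 at least 2-fold lower, and Steap2 read 90.8 in both.

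Position in the genome was not used to choose the genes. In the RefSeq gene order, Scara5 lies on chromosome 14 and Slc14a1 on chromosome 18. The 2 protein-coding genes next to Scara5 on one side were also higher in D16. Pbk, a mitotic kinase, read 597.5 in D16 and 115.0 in D351 (5.20-fold higher in D16), and its _f probe set had 26.0 in D16 and 5.4 in D351. Esco2, an acetyltransferase of cohesin, read 96.4 in D16 and 16.6 in D351 (at least 5.74-fold), but 3.9 in D16 and 2.5 in D351 on another probe set. With the floor at 53.5 the log2 ratio of Esco2 was at least 0.85, a lower bound under 2-fold.

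The next measured genes around Scara5 did not share that difference, but they were not its direct neighbours. Trim35 lay 11 protein-coding genes from Scara5, Zfp395 4, Hmbox1 9 and Kif13b 10. Apart from Pbk and Esco2, the genes between Scara5 and Trim35 or Zfp395 were not measured, so where the difference ends could not be read. Trim35 read 62.8 in D16 and 67.5 in D351. On the other side Zfp395 read 154.1 in D16 and 125.4 in D351, Hmbox1 28.5 in D16 and 37.8 in D351, and Kif13b 109.2 in D16 and 112.1 in D351. The 10 nearest measured genes on each side of Scara5 reached 39 protein-coding genes away on one side and 46 on the other. Over these 20 the median log2 ratio was 0.52. It was 0.01 over the 181 measured genes of chromosome 14 besides Scara5, which include these 20. At least 2-fold higher in D16 were 5 of the 20, against 15 of the 181 and 8.57% of all measured genes, and 0 were as much lower, against 12 of the 181 and 9.49%. The 5 were Pbk, Esco2, Gata4, Nefl and Slc25a37, the mitoferrin gene described above. With the floor at 53.5, Pbk and Slc25a37 stayed past 2-fold, the ratios of Esco2 and Gata4 were lower bounds under 2-fold, and Nefl was under the floor in both clones.

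The measured genes around Slc14a1 did not come near its ratio. Epg5, of autophagy, read 45.6 in D16 and 37.5 in D351. Pstpip2 read 9.3 in D16 and 22.6 in D351, and Haus1, of the augmin complex, 17.3 in D16 and 7.4 in D351. On the other side Setbp1 read 105.9 in D16 and 164.9 in D351, Pard6g 468.4 in D16 and 324.9 in D351, and Adnp2 79.7 in D16 and 34.8 in D351 (2.29-fold higher in D16). With the floor at 53.5 the log2 ratio of Adnp2 was at least 0.58, a lower bound under 2-fold. The 20 nearest measured genes reached 32 protein-coding genes away on one side and 29 on the other. Of these 20 neighbours 2 were at least 2-fold higher in D16, near the 8.57% of all measured genes, and 0 were as much lower. Chromosome 18 had 137 measured genes besides Slc14a1, which include the 20. Of the 137, 18 were at least 2-fold higher in D16 and 6 as much lower. The median log2 ratio was 0.50 over the 20 and 0.10 over the 5 nearest on each side. Over the 137 it was 0.30, so the whole chromosome lay above the 0.01 of all measured genes.

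**Figure D4:**
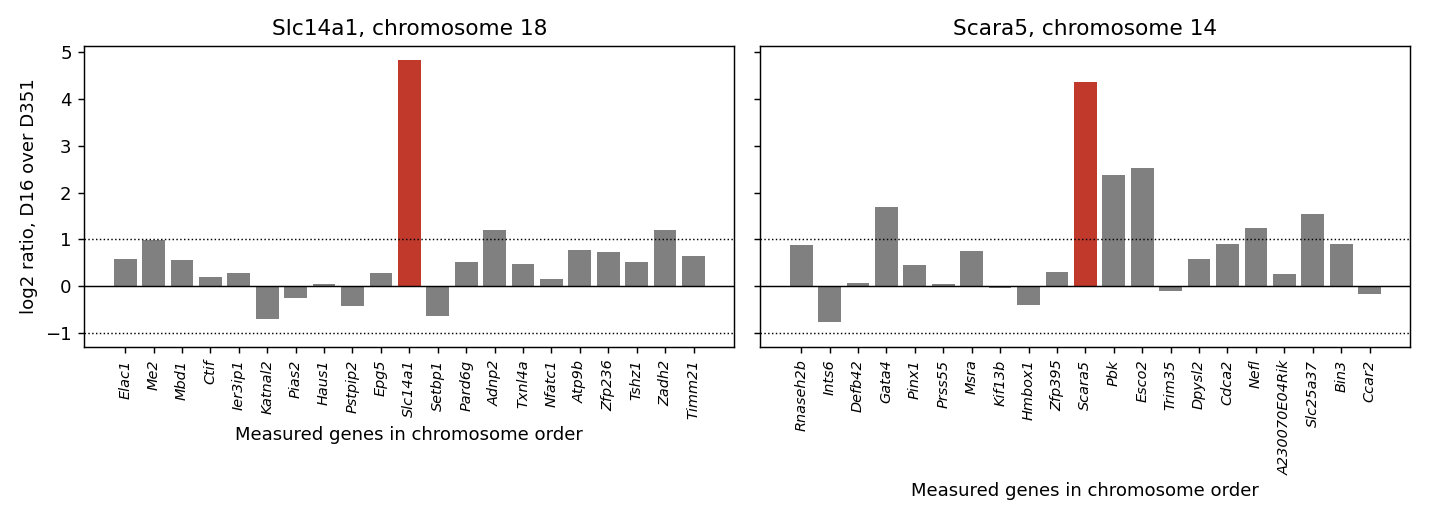
Log2 ratio of D16 over D351 for the 10 nearest measured genes on each side of Slc14a1 (left) and Scara5 (right), in chromosome order and not to distance, with values raised to the floor and 2-fold lines dotted. Slc14a1 stands alone at 4.84 or more, while Scara5 (at least 4.37) has Pbk (2.38) and Esco2 (at least 2.52) beside it.

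Markers of cell types in which Slc14a1 or Scara5 is known could be read only in part. Of 13 endothelial markers 4 had a probe set. Eng, Esam and Robo4 were under the floor in both clones, and Flt1 read 10.3 in D16 and 44.5 in D351. The summed signal of the endothelial probe sets was 34.4 in D16 and 64.7 in D351. Of 17 erythroid markers, Kel alone had probe sets, which were under the floor in both clones and summed to 16.2 in D16 and 19.1 in D351.

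Of 11 astrocyte markers 5 had a probe set. Aqp4, Slc1a2 and Aldh1l1 were under the floor in both clones. Sox9, which cartilage and other mesenchyme also express, read 125.3 in D16 and 58.1 in D351, and 56.7 in D16 and 40.5 in D351 on its other probe set. Slc1a3 read 30.8 in D16 and 4.6 in D351, and was under the floor in both clones on its other probe set (8.3 in D16 and 1.1 in D351). The astrocyte probe sets summed to 242.3 in D16 and 132.2 in D351, most of it from Sox9, so the sum is not a measure of astrocytes. Of 14 markers of adventitial fibroblasts 4 had a probe set. Pi16 and Col14a1 were under the floor in both clones, while Efemp1 read 613.9 in D16 and 148.1 in D351 and Cd248 read 238.9 in D16 and 564.0 in D351. Their probe sets summed to 856.7 in D16 and 719.8 in D351.

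Of 12 genes listed as markers of macrophages and blood, 2 had a probe set. Cd44 read 1164.5 in D16 and 1092.5 in D351 on its brighter probe set, and 483.1 in D16 and 487.1 in D351 on the other. Runx1 read 45.4 in D16 and 61.1 in D351. The sum was 1693.0 in D16 and 1640.7 in D351, most of it from Cd44, so it is not a measure of blood cells. Of 13 markers of renal and urothelial epithelium 0 were analysed here. The part of other cell types in the Slc14a1 and Scara5 signals was not tested. In RNA from whole cultures, fewer cells with a transcript and less transcript per cell cannot be told apart.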

How the data were processed

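The authors deposited 1 linear signal intensity for each probe set on each array. The software, background correction and presence calls behind these intensity values are not given in the sources used here. The 2 columns shared a trimmed mean of 40.0 (2% cut from either end), so they were used as deposited. Values are thus relative to the bulk of each array, and the number of arrays (1 per clone) limits the precision.

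Of 12477 probe sets 66 were controls and left out. Of the other 12411, 10581 had exactly 1 symbol in GEO's platform annotation, 178 had several and 1652 were unnamed here, and 0 probe sets with several symbols included Slc14a1 or Scara5. Identifiers of 10550 matched NCBI RefSeq genes of assembly GRCm38.p6, with 0 symbols renamed, and that assembly gave gene order only. Neither gene had an entry in the RefSeq promoter table.

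Ratios are log2 of D16 over D351 after raising values to the pooled 50th percentile (16.8). For each gene the probe set brightest on average was taken, and a measured gene reached the floor on at least 1 array. No p-value was computed. The ratio step was tested on simulated data, with changes placed only on probe sets well above the floor. Ratios that are bounds, as for Slc14a1 and Scara5, were not tested that way. Named were all probe sets of both genes, up to 12 D16-restricted genes, up to 6 members per list past 2-fold, 3 measured neighbours on each side, and a fixed set of iron, urea and scavenger genes at any value. Other members and edge cases were named after their values were seen. The genes and lists were chosen with earlier results of these data known. Other settings tried were other floors, scalings, brightness minima, size rules and gene summaries. Python 3.11.15, numpy 2.4.6, pandas 2.3.3 and matplotlib 3.10.9 were used.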

Additional observations from a re-analysis of the deposited data

How the results depend on the processing

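No paired analysis was possible because each clone has 1 array. A ratio was taken as moved when it shifted by more than 0.50 on the log2 scale, the SD between probe sets of a gene (1113 genes). A floor lowered to the 25th percentile (4.6) gave log2 ratios of D16 over D351 of at least 6.71 and 5.72 for the bright Slc14a1 probe sets and 6.0 for Scara5, whose D351 signal then lay above the floor. With a floor of 53.5, the 75th percentile, they were at least 3.17, 2.18 and 2.70. D16-restricted probe sets numbered 2 with the lower floor (both Slc14a1) and 42 with the higher one, and D351-restricted ones 8 and 55. With the bright minimum at the 95th percentile the counts were 4 (Slc14a1, Scara5 and Acot1) and 8, and at the 75th percentile 40 and 79. Probe sets at least 2-fold higher in D16 numbered 1127 and those higher in D351 1223 with the lower floor, 223 and 260 with the higher one, and 171 and 224 past 3-fold. Scaling to a common median, quantile normalization, loess and adding the floor to both values moved none of the Slc14a1 and Scara5 ratios that far. Under the settings run for them, the list medians with at least 5 genes and the neighbour medians also moved by less. That cut is wide for medians this close to 0, so it cannot show that they are stable. The median of the Slc14a1 neighbours went from 0.50 to 0.10 with 5 genes on each side. Taking only genes at the floor on both arrays, a setting added after seeing the data, was run for lists that kept at least 5 genes, the iron (0.40) and solute carrier (0.13) lists. The iron median ranged from 0.31 to 0.56. With the higher floor, the log2 ratios of Tfrc (at least 0.78) and Steap3 (at least 0.77) were lower bounds under 2-fold, and Slc40a1 was at most -1.39. What fell below the floor has no order and cannot be called absent.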

Other observations

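Other genes with a D351 signal near the bottom of the range had moderate D16 signals, and these were picked after their values were seen. Gata4, a transcription factor of heart and other mesoderm, read 54.3 in D16 and 0.5 in D351 (at least 3.23-fold higher in D16). Tenm4, a teneurin of the cell surface, read 103.4 in D16 and 3.4 in D351, and Nefl, a neurofilament subunit, 39.9 in D16 and 0.9 in D351. Gata4 and Nefl lie among the 10 nearest measured genes on either side of Scara5 on chromosome 14. Pianp read 88.6 in D16 and 10.4 in D351. With the bright minimum lowered to the pooled 75th percentile, 40 probe sets were D16-restricted, among them Slc4a4 as a second solute carrier.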
